A study of Mus musculus with 6 samples.

Results

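Levels of 8 genes of adrenergic signalling were compared in mouse hearts: the receptors Adrb1, Adra1a and Adra1b, the adenylyl cyclases Adcy5 and Adcy6, the regulators of G protein signalling Rgs2 and Rgs4, and Prkaca, the alpha catalytic subunit of protein kinase A. They were taken by name, and their level was the FPKM (fragments counted per kilobase of a transcript and relative to the library's mapped fragments) summed over the transcripts of each gene. The 8 were among 36567 genes with a value, and all 8 passed the filter on low values that left 11385 genes for testing.

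The series sequenced messenger RNA of whole hearts taken at 32 weeks of age. The first 3 libraries, numbered 1 to 3, came from ApoE-/- littermate controls, and the other 3, numbered 4 to 6, from mice labelled ApoE-/- Timp3-/-, below called the double mutants. Both groups thus shared the loss of apolipoprotein E, a ligand for lipoprotein uptake whose loss gives high blood cholesterol and atherosclerosis, so no heart here was wild type. Timp3 encodes a secreted inhibitor of metalloproteinases that cut matrix and shed membrane proteins, and the labels name no promoter, Cre or deleted exon for either allele.

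Noradrenaline and adrenaline act on the heart through receptors coupled to G proteins. Beta receptors act through the stimulatory G protein on adenylyl cyclase, cyclic AMP and protein kinase A, which raise the rate and force of contraction, while alpha-1 receptors act through Gq on phospholipase C beta and protein kinase C. RGS proteins speed up GTP hydrolysis by G protein alpha subunits and so shorten the signal, and Rgs2 acts mainly on Gq.

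The promoters of Rgs2, Rgs4 and Adrb1 are shown because these genes carry TGACG, the core of the cyclic AMP response element, and because Rgs2 and Adrb1 are the members whose libraries separated by genotype. Each runs 5′ to 3′ from 250 bases before the transcription start to 50 after it, from RefSeq in build GRCm38.p6, which is not the build of the expression files. Capitals mark TGACG, or CGTCA where the match is on the opposite strand.
Rgs2, chr1:144004100-144004399, minus strand: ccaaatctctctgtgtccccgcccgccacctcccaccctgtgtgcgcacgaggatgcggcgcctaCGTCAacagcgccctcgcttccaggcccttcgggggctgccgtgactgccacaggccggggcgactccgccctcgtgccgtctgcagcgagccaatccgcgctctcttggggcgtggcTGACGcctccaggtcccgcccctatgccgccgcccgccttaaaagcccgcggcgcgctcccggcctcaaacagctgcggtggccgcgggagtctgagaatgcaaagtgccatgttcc
Rgs4, chr1:169747593-169747892, minus strand: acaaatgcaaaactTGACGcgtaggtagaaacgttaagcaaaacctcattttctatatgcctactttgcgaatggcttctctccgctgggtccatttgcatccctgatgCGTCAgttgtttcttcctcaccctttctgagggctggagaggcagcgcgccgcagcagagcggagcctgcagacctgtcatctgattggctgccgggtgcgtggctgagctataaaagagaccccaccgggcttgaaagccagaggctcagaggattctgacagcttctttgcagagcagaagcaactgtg
Adrb1, chr19:56721867-56722166, plus strand: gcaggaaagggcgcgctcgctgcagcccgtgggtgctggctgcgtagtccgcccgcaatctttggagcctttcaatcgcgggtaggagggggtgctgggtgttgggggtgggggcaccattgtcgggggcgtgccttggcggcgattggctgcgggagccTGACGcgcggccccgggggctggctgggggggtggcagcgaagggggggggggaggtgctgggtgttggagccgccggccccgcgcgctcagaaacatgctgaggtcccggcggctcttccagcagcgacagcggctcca
In Rgs2 the matches began 185 and 67 bases before the start, in Rgs4 236 and 141 bases before it, and in Adrb1 90 bases before it. The promoter of Rgs4 also holds TATAAA. RefSeq entries were matched for 6 of the 8 genes, 8 entries in all; the upstream Prkaca entry held TGACG at 2 places as well, and the downstream Prkaca entry, both Adra1b entries and the Adcy5 entry held none. Searched on both strands over 32851 promoters of the same length, TGACG occurred in 20.8% and at 2 or more places in 5.01%. The whole element TGACGTCA, which contains TGACG, occurred in 1.79% and in none of these 8 entries, and TATAAA in 13.6%. These matches describe the letters and no binding was measured.

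Coverage in the files added up to 654.1 to 1339 aligned megabases per library, deepest in library 2, and the precision of each level is limited by this depth and by 3 libraries a group. Reads per gene are not given, so no counting interval is printed; bounds are those the authors deposited with each transcript. Timp3, the targeted gene, read 52.1, 38.0 and 36.3 FPKM in the controls and 20.2, 28.0 and 29.6 in the double mutants. All 3 double mutants were lower, but the transcript was still present (log2 difference -0.61, limma adjusted p = 0.287; exact two-sided permutation p = 0.1, the smallest this design can reach). Apoe read 1.84 to 4.15 FPKM over the 6 libraries. Cardiac muscle markers summed to between 14562 and 24120 scaled FPKM. Atrial markers summed to 1514, 826 and 138 in the controls and to 194, 1023 and 1504 in the double mutants. All 8 tested atrial markers were above 0 (median log2 difference 1.42), where 48.8% of all genes were. None reached an unadjusted limma p under 0.05, and the groups overlapped in each. Conduction system markers summed to 12.1, 5.23 and 6.02 against 8.24, 10.7 and 10.5. Of these 4 were tested, all above 0, 2 at that p, where 6.96% of all genes were higher, and none passed adjustment. Adipocyte markers summed to 172 in library 1 against 9.02 to 30.3 elsewhere. Red blood cell markers summed to 882, 686 and 208 in the controls and to 23527, 852 and 2134 in the double mutants. All 5 tested of these were above 0, 4 at an unadjusted limma p under 0.05, where 6.96% of all genes were higher. None passed an adjusted p of 0.05. In whole hearts, fewer cells of a type and less RNA per cell cannot be told apart. Of the 11385 genes, 5 passed an adjusted p of 0.05 (limma, Benjamini-Hochberg), 0.0439%.

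None of the 8 genes passed that threshold. At an unadjusted limma p under 0.05, Rgs2 was higher and Adrb1 lower in the double mutants, and in the same 2 genes the scaled values of the groups did not overlap. Over all genes 6.96% were higher and 5.23% lower at that unadjusted p, and 10% and 9.22% had groups without overlap in the same directions. The median log2 difference of the 8, double mutant minus control, was 0.11, against -0.01 over all genes tested, with 5 of the 8 above 0, where 48.8% of all genes were. Rgs2 and Adra1b differed by at least 0.5 in size, where 8.48% of all genes did. Scaling the libraries to the same total moved the median of the 8 to -0.07 and that of all genes to -0.16, and library weights moved that of the 8 to -0.014.

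**Figure D1:**
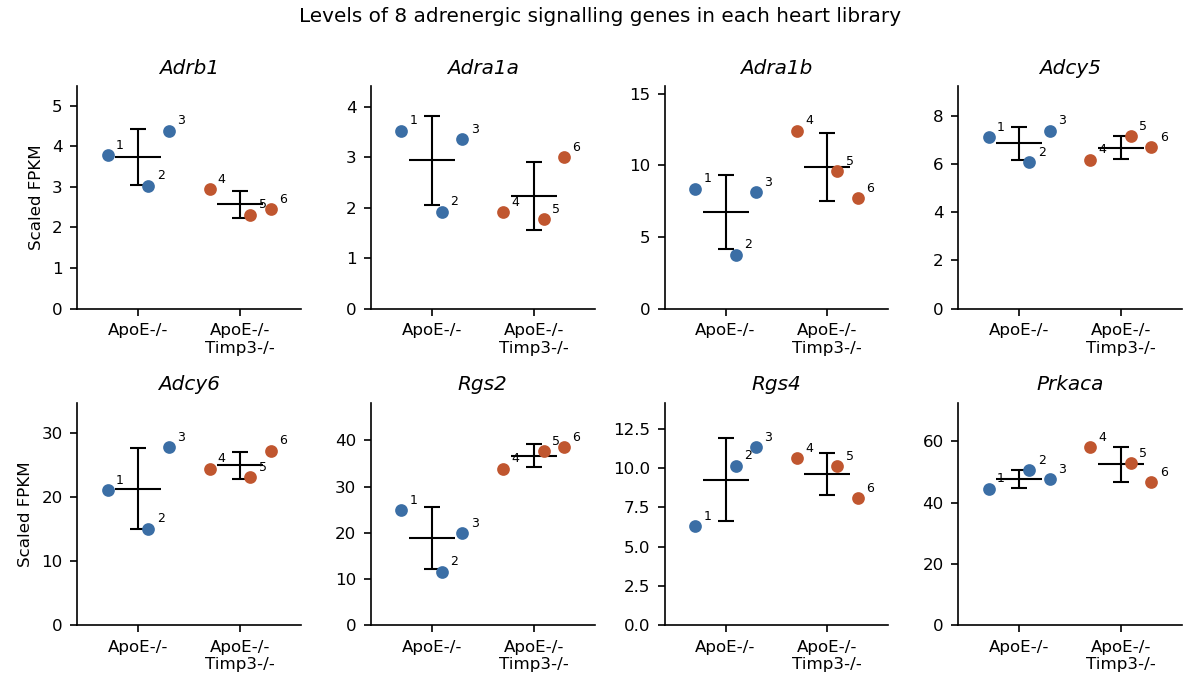
Scaled FPKM of each gene (vertical axis, from 0) in the 3 ApoE-/- and 3 ApoE-/- Timp3-/- hearts; points are libraries with their number, and bars are the mean and SD. Rgs2 and Adrb1 are the panels in which the groups do not overlap, and library 2 is the lowest point for Adra1b, Adcy5, Adcy6 and Rgs2.

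Ordered by level per length, over all 6 libraries, Prkaca came first at 50.1 ± 4.91 scaled FPKM (SD, n = 6), followed by Rgs2 at 27.8 ± 10.8 and Adcy6 at 23.1 ± 4.69. Rgs4 at 9.45 ± 1.88, Adra1b at 8.32 ± 2.81 and Adcy5 at 6.77 ± 0.541 came next, and Adrb1 at 3.15 ± 0.798 and Adra1a at 2.58 ± 0.801 were lowest. The kinase was thus the most abundant transcript of the 8, and Adrb1 and Adra1a were the least abundant. Prkaca exceeded Rgs2, Adcy6 exceeded Rgs4 and Adcy5 exceeded Adrb1 in 6 of 6 libraries, with ranges that did not overlap. The other neighbours overlapped: Rgs2 lay above Adcy6, and Rgs4 above Adra1b, in 4 of 6 libraries, and Adra1b lay above Adcy5, and Adrb1 above Adra1a, in 5 of 6. By genotype the order of means changed among these neighbours: in the controls Rgs2 was below Adcy6 (18.8 and 21.3) and Adra1b below Adcy5 (6.75 and 6.86), and in the double mutants Adra1b was above Rgs4 (9.89 and 9.62).

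Adrb1, the main beta receptor of heart muscle cells, is a gene of 1 exon (chr19:56796862-56799352, plus strand, NCBIM37). It read 4.41, 3.05 and 4.04 FPKM in control libraries 1, 2 and 3 and 3.01, 2.07 and 2.47 in double mutant libraries 4, 5 and 6. All 3 double mutants were below all 3 controls, but control 2 and double mutant 4 were nearly equal, and their deposited bounds, 2.60 to 3.49 and 2.46 to 3.55, overlapped. Scaled means were 3.73 ± 0.680 and 2.57 ± 0.332 (SD, n = 3 each). The log2 difference was -0.40 (SE 0.15, 95% interval -0.75 to -0.05), with an unadjusted limma p of 0.0297 and an adjusted p of 0.361. It ranged from -0.57 to -0.30 over 18 alternative settings. In these hearts Adrb1 stood at 0.757 of the control level on the log2(scaled FPKM + 1) scale, a difference that did not pass the test over all genes.

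Adrb3, the beta receptor known from fat, read 2.73 FPKM in library 1 and at most 0.353 elsewhere, and library 1 was also the one with the high adipocyte sum, including 31.6 FPKM of Ucp1, the uncoupling protein of brown fat. The part of fat cells in that value was not tested.

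Adra1a (chr14:67254088-67390005, plus strand) encodes an alpha-1 receptor coupled to Gq. It read 4.11, 1.93 and 3.10 FPKM in the controls and 1.95, 1.59 and 3.02 in the double mutants. The groups overlapped, with control 2 beside the lower double mutants and double mutant 6 beside the higher controls. Scaled means were 2.94 ± 0.883 and 2.23 ± 0.667 (SD, n = 3 each), a log2 difference of -0.28 (SE 0.22, 95% interval -0.80 to 0.24; limma adjusted p = 0.665). Leaving out 1 library at a time gave -0.48 (without library 2) to -0.17 (without library 1). Its level rested largely on transcripts that Cufflinks assembled in each library. Reference transcripts supplied 16.2% of it over the 6 libraries, 100% in library 5, 30.4% in library 4, 18.5% in library 2 and nothing in the others, so the Adra1a values depend on the assembly.

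Adra1b (chr11:43588108-43714712, minus strand), also an alpha-1 receptor, read 9.76, 3.79 and 7.46 FPKM in the controls and 12.7, 8.57 and 7.76 in the double mutants. Control 2 was far below the other 5 libraries, and the remaining controls overlapped the double mutants. Scaled means were 6.75 ± 2.58 and 9.89 ± 2.38 (SD, n = 3 each), a log2 difference of 0.53 (SE 0.29, 95% interval -0.15 to 1.22; limma adjusted p = 0.53). Without library 2 the difference was 0.22 and without library 1 it was 0.70.

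Apart from an assembled transcript of 1.36 FPKM in library 3, the FPKM of Adra1b sat on 2 reference transcripts. The transcript of 3331 nt and 5 exons that spans the whole gene was listed at 0 in all 6 libraries. A transcript of 2 exons and 3047 nt from the 3′ part of the gene, which a later annotation classes as not coding, read 3.94, 1.34 and 1.61 FPKM in the controls and 5.37, 4.54 and 3.87 in the double mutants. As deposited, control 1 lay among the double mutants and the other 2 controls lay well below. Its log2 difference was 0.88 (SE 0.28, unadjusted limma p 0.0215, adjusted p = 0.517 over 12418 transcripts), beside 0.26 (SE 0.31, adjusted p = 0.826) for the coding transcript of 1764 nt. Over all transcripts 8.4% had an unadjusted p under 0.05 and 0.129% passed adjustment. As the files divided the FPKM, part of the Adra1b difference lay on a transcript with no annotated protein. The 2 transcripts span overlapping stretches, 43588108 to 43649834 and 43589525 to 43714712. How reads were divided between them was not tested.

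Set against each other within a library, Adra1a stood at 0.421, 0.510 and 0.415 of the Adra1b level in control hearts and 0.154, 0.186 and 0.390 of it in the double mutants. All 3 double mutants were lower, library 6 only narrowly. The ratio differed by -1.0 on the log2 scale, a factor of 0.50, with an exact two-sided permutation p of 0.1, the smallest possible here, and an adjusted p of 0.375 over the 5 ratios computed. Leaving out 1 library at a time gave -1.40 to -0.73. Both levels are sums over transcripts. Adra1a rested largely on assembled ones, and Adra1b partly on the transcript classed as not coding. The coding Adra1b transcript of 1764 nt alone read 5.82, 2.45 and 4.49 FPKM in the controls and 7.32, 4.03 and 3.90 in the double mutants. The ratio of Adra1a to that transcript alone was not tested. The remaining alpha-1 receptor, Adra1d, was the only other adrenoceptor in the test, at 1.40 ± 0.186 and 1.10 ± 0.136 scaled FPKM (SD, n = 3 each), a log2 difference of -0.19 (limma adjusted p = 0.635). The alpha-2 receptors Adra2a, Adra2b and Adra2c stayed at or below 0.433 FPKM in all libraries.

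**Figure D2:**
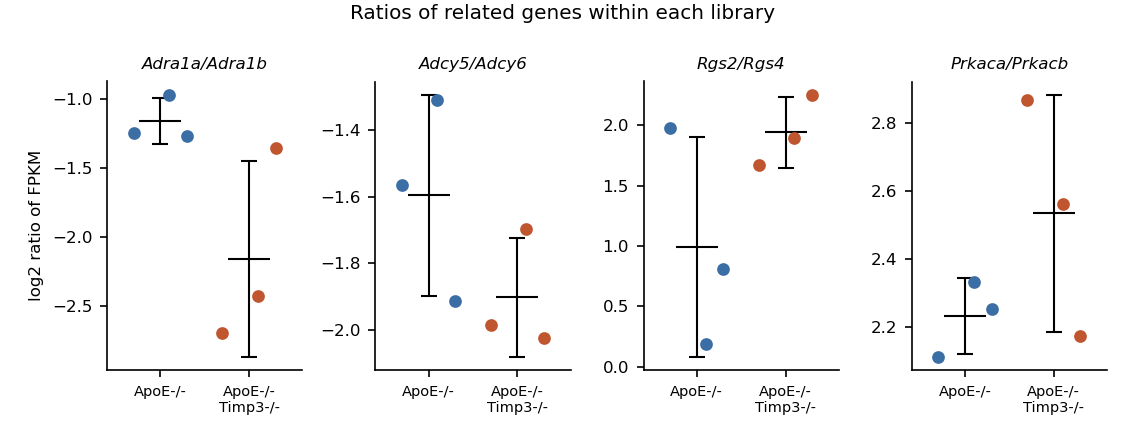
Log2 ratio of the FPKM of related genes within each library (vertical axis, not starting at 0, with its own range in each panel) in ApoE-/- and ApoE-/- Timp3-/- hearts; points are libraries (blue ApoE-/-, orange ApoE-/- Timp3-/-), bars the mean and SD. Adra1a to Adra1b, each summed over all transcripts of its gene, is the 1 pair of the 4 shown whose groups do not overlap.

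Adcy5 and Adcy6 encode the main adenylyl cyclases of heart muscle cells, which make cyclic AMP. Adcy5 (chr16:35154963-35305823, plus strand) read 8.29, 6.12 and 6.80 FPKM in the controls and 6.32, 6.40 and 6.77 in the double mutants, all from 1 reference transcript of 21 exons. The groups lay within each other and the spread was the smallest of the 8 genes relative to the mean. Scaled means were 6.86 ± 0.689 and 6.68 ± 0.482 (SD, n = 3 each), a log2 difference of -0.03 (SE 0.12, 95% interval -0.31 to 0.25; limma adjusted p = 0.944), which turned to 0.02 without library 3 and also without library 4.

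Adcy6 (chr15:98420425-98438064, minus strand) read 24.5, 15.2 and 25.6 FPKM in the controls and 25.0, 20.8 and 27.6 in the double mutants. As deposited, control 2 alone lay below the range of the double mutants. Scaled means were 21.3 ± 6.38 and 25.0 ± 2.11 (SD, n = 3 each), a log2 difference of 0.26 (SE 0.21, 95% interval -0.25 to 0.76; limma adjusted p = 0.683). The difference rested on single libraries: it was 0.040 without library 2 and 0.46 without library 3, and 0.024 with library weights and 0.072 after scaling to the same total. As with Adra1a, much of this level came from assembled transcripts: the reference transcript of 22 exons supplied 17.0%, 76.2% and 9.58% of it in libraries 1, 2 and 3 and 39.0%, 100% and 0% in libraries 4, 5 and 6. Adcy5 stood at 0.338, 0.403 and 0.265 of the Adcy6 level in control hearts and 0.253, 0.308 and 0.246 of it in the double mutants, with overlap (log2 difference -0.31, exact two-sided permutation p = 0.2, adjusted p = 0.375 over the 5 ratios; -0.46 without library 3 and -0.16 without library 2).

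Of 8 other adenylyl cyclases, 3 were tested, and none passed: Adcy7 differed by -0.24 on the log2 scale, Adcy9 by -0.22 and Adcy4 by -0.06 (limma adjusted p 0.736, 0.754 and 0.929). Adcy4, the highest of the 3, read 2.74 to 4.16 FPKM, below Adcy5 and Adcy6 in every library.

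Prkaca (chr8:86496877-86520344, plus strand), whose product phosphorylates phospholamban, troponin I and other proteins of the contraction cycle, read 52.0, 50.8 and 43.9 FPKM in the controls and 59.4, 47.4 and 47.2 in the double mutants. Library 4 was highest, and as deposited libraries 5 and 6 lay among the controls. After scaling, library 5 at 52.9 lay above all controls and library 6 at 46.7 among them. Scaled means were 47.6 ± 2.96 and 52.6 ± 5.71 (SD, n = 3 each), a log2 difference of 0.14 (SE 0.13, 95% interval -0.16 to 0.44; limma adjusted p = 0.715), which was -0.01 after quantile normalization and -0.05 after scaling to the same total, and 0.065 without library 4 and 0.22 without library 6. Prkacb, the beta catalytic subunit, read 8.02 to 12.0 FPKM. The ratio of Prkaca to Prkacb was 4.32, 5.04 and 4.76 in the controls and 7.31, 5.91 and 4.51 in the double mutants, so libraries 4 and 5 were above all controls and library 6 was not (log2 difference 0.30, exact two-sided permutation p = 0.3, adjusted p = 0.375 over the 5 ratios; 0.13 without library 4 and 0.48 without library 6).

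A pair of reference transcripts made up the Prkaca level, and they differ at the start of the protein. The starts of their coding sequence are shown because the data split the gene between them; they were read 5′ to 3′ from the GENCODE transcripts of the same intron lengths, with the part from the first exon in capitals and the shared 24 bases of the next exon in lower case.
Prkaca-201: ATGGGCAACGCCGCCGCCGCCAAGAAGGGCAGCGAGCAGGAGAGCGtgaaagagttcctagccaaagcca
Prkaca-202: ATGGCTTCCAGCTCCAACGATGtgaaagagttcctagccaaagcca
Prkaca-201 encodes the widespread form of the kinase, and Prkaca-202 the form known from male germ cells. The transcript of 2293 nt, with the first exon of Prkaca-201, read 19.7, 20.2 and 24.5 FPKM in the controls and 28.1, 22.2 and 25.6 in the double mutants. The transcript of 2027 nt, with the first exon of Prkaca-202, read 32.2, 30.6 and 19.3 in the controls and 31.3, 25.1 and 21.6 in the double mutants. It thus held 44.1% to 62.0% of the gene's FPKM, with no separation of the genotypes. The files place 2005 bases in both transcripts, 288 in the first alone and 22 in the second alone, so the split rests on few bases. Neither transcript passed the test (log2 differences 0.27 and -0.01, limma adjusted p 0.727 and 0.997).

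**Figure D3:**
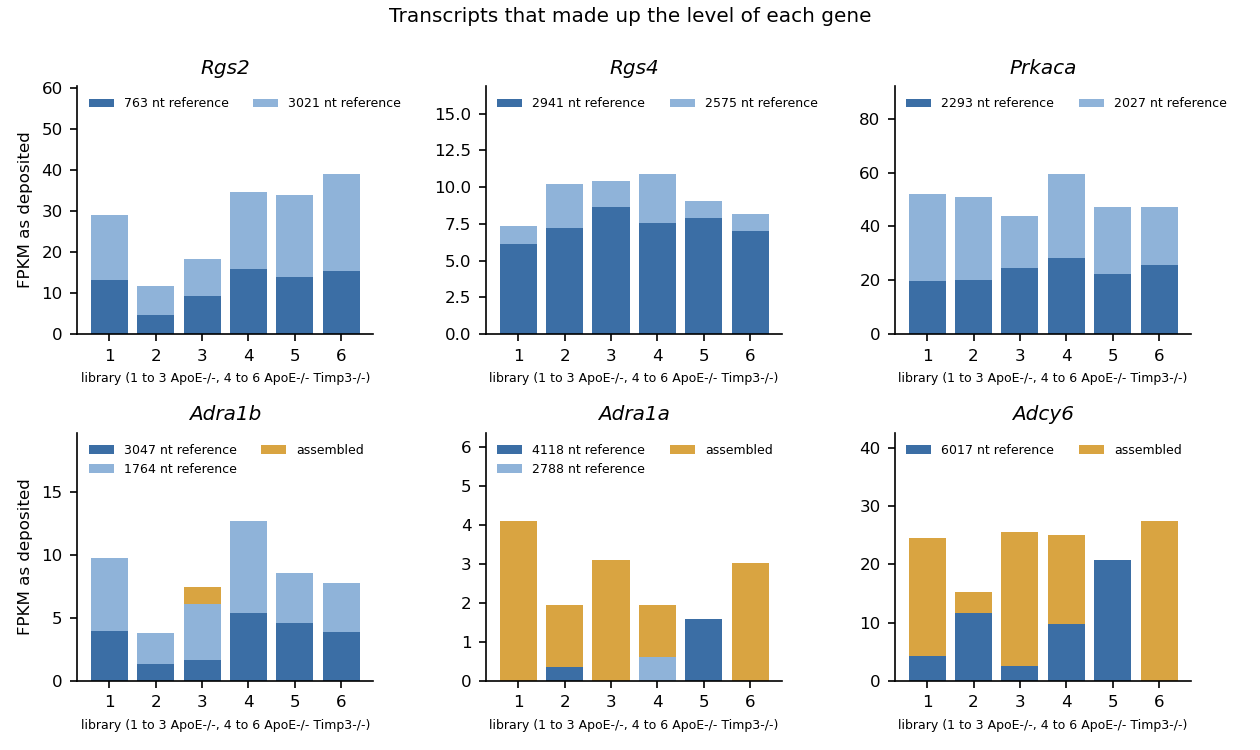
FPKM as deposited (vertical axis, from 0) of the transcripts that made up 6 of the genes in each library, stacked; blue shades are reference transcripts by length and ochre is the sum of transcripts assembled in that library. Rgs2, Rgs4 and Prkaca rest on reference transcripts in all 6 libraries, while ochre makes up most of Adra1a in libraries 1, 2, 3, 4 and 6 and of Adcy6 in libraries 1, 3, 4 and 6.

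Rgs2 (chr1:145846468-145851291, minus strand) differed most among the 8 genes. It read 29.0, 11.7 and 18.3 FPKM in the controls and 34.6, 33.8 and 39.0 in the double mutants. All 3 double mutants were above all 3 controls, and the controls were spread more widely than the double mutants, with control 2 lowest. Scaled means were 18.8 ± 6.73 and 36.7 ± 2.50 (SD, n = 3 each), a 1.99-fold difference on the log2(scaled FPKM + 1) scale. The log2 difference was 0.99 (SE 0.25, 95% interval 0.39 to 1.59), with an unadjusted limma p of 0.00572 and an adjusted p of 0.257. Of the genes tested, 2.16% had a smaller p. The difference was above 0 under all 19 alternatives, from 0.70 without library 2 to 1.21, with adjusted p from 0.0616 to 0.57.

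In both expressed Rgs2 transcripts every double mutant lay above every control as deposited. The files place 653 bases in both transcripts and only 110 in the shorter alone, so their levels are not separate measurements. The coding transcript of 3021 nt and 5 exons read 15.8, 6.89 and 9.14 FPKM in the controls and 18.8, 19.9 and 23.5 in the double mutants. The lowest double mutant bound was 17.6 and the highest control bound 17.1, so the deposited bounds of the groups did not meet. Its log2 difference was 1.02 (SE 0.27, limma adjusted p = 0.466 over transcripts). The transcript of 763 nt, which keeps 110 bases that the other splices out and which a later annotation assigns to nonsense-mediated decay, read 13.3, 4.76 and 9.18 in the controls and 15.8, 13.9 and 15.5 in the double mutants (log2 difference 0.81, SE 0.32, adjusted p = 0.564). For this transcript the bounds did meet, at 10.7 to 15.8 in control 1 and from 11.6 upward in double mutant 5. It held 39.7% to 50.1% of the gene's FPKM, a share in which the genotypes overlapped. How the reads of shared bases were divided between the transcripts was not tested.

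Rgs4 (chr1:171671608-171677773, minus strand), whose product acts on Gi and Gq, read 7.36, 10.2 and 10.4 FPKM in the controls and 10.9, 9.07 and 8.17 in the double mutants. The groups lay across each other. Scaled means were 9.28 ± 2.63 and 9.62 ± 1.35 (SD, n = 3 each), a log2 difference of 0.07 (SE 0.22, 95% interval -0.43 to 0.58; limma adjusted p = 0.926), which was -0.10 after scaling to the same total and -0.15 without library 1. Its transcript of 2941 nt supplied 69.6% to 86.7% of the level and a transcript of 2575 nt that lacks an exon the rest. The ratio of Rgs2 to Rgs4 was 3.94, 1.14 and 1.75 in the controls and 3.18, 3.72 and 4.77 in the double mutants; control 1 lay among the double mutants (log2 difference 0.95, exact two-sided permutation p = 0.3, adjusted p = 0.375 over the 5 ratios; 0.54 without library 2 and 1.44 without library 1).

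**Figure D4:**
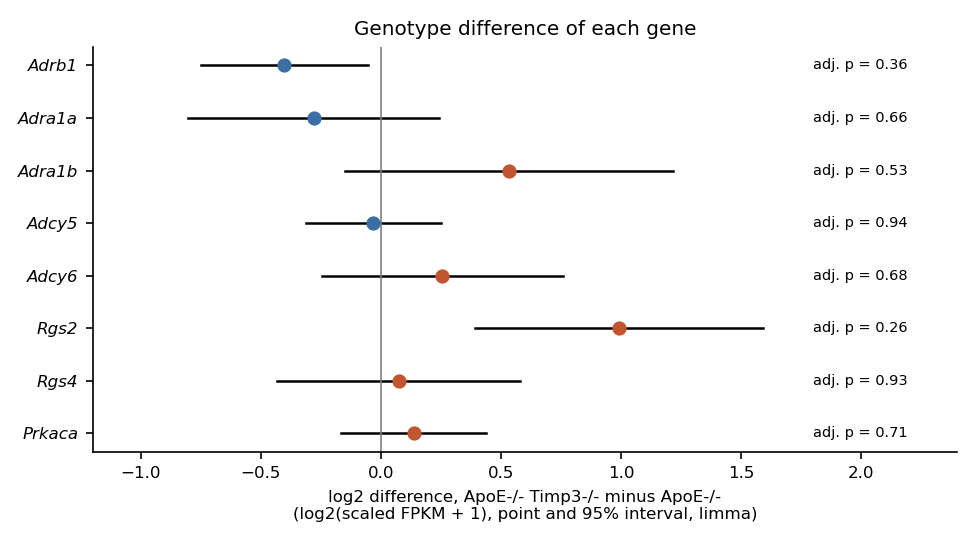
Log2 difference of each gene, ApoE-/- Timp3-/- minus ApoE-/- (horizontal axis, log2(scaled FPKM + 1)); points are the estimates (orange above 0, blue below), lines the 95% intervals of limma and the text its adjusted p. The intervals of Rgs2 and Adrb1 leave out 0, and no adjusted p is under 0.05.

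Beyond the 8 genes, 147 others of the pathway were listed by role, of which 101 were tested. None passed an adjusted p of 0.05, and at an unadjusted limma p under 0.05 there were 3 higher and 6 lower in the double mutants, 8.91% against 12.2% of all genes. Groups did not overlap in 15 of the 101, 14.9%, against 19.2% of all genes, and the median log2 difference was -0.03. Both shares were below those of all genes tested.

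Among other RGS proteins, 8 of 18 were tested, with 2 above 0 and 6 below and a median log2 difference of -0.32. Rgs3 read 6.32, 5.85 and 4.97 FPKM in the controls and 4.03, 3.47 and 3.64 in the double mutants. These groups were well apart, at scaled means of 5.54 ± 0.233 and 3.81 ± 0.178 (SD, n = 3 each; log2 difference -0.44, unadjusted limma p 0.00351, adjusted p = 0.238). Rgs12 was also lower without overlap, at -0.40 (adjusted p = 0.39), and Rgs7 stood at 0.53 with overlap (adjusted p = 0.449). Rgs5, the most abundant RGS transcript here and a marker of pericytes, read 277 ± 70.7 and 214 ± 31.5 scaled FPKM, with overlap (adjusted p = 0.604). Rgs2 was thus the 1 tested RGS gene whose groups were apart in the upward direction, beside 2 apart in the downward one. Over all genes tested, 10% were apart upward and 9.22% downward.

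Markers of vessel and stromal cells were mostly below 0, as Rgs3 and Rgs12 were, though none passed an adjusted p of 0.05; over all genes 5.23% were lower at an unadjusted p under 0.05. Of 10 endothelial markers 9 were below 0 and 4 lower at an unadjusted p under 0.05, and their sums were 199, 249 and 226 scaled FPKM in the controls and 218, 169 and 176 in the double mutants. Of 9 fibroblast markers all were below 0 and 5 lower at that p, with sums of 289, 241 and 199 against 187, 224 and 214. Of 9 tested markers of smooth muscle and pericytes 6 were below 0, 4 of them at that p, and 3 above 0, Acta2 at that p, with sums of 520, 986 and 728 against 849, 730 and 659. No defining marker of these lists was at 0 in all libraries, and their part in the RGS and receptor kinase values was not tested.

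Receptor kinases phosphorylate active receptors so that arrestins bind and uncouple them. Of 7 genes in this group 6 were tested, 2 above 0 and 4 below. Grk5 read 6.40, 4.76 and 5.16 FPKM in the controls and 2.97, 2.67 and 4.19 in the double mutants, all of them below the controls (log2 difference -0.54, SE 0.15, unadjusted limma p 0.00743, adjusted p = 0.257). Grk2, the other main receptor kinase of the heart, differed by only -0.12 (adjusted p = 0.698), and Grk3 by 0.28 (adjusted p = 0.613). The arrestins Arrb1 and Arrb2 differed by -0.08 and 0.10 (adjusted p 0.828 and 0.9).

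Of 21 G protein subunits 19 were tested, 4 above 0 and 15 below, with a median log2 difference of -0.10. Gnb4, a beta subunit, was lower without overlap at -0.39 (unadjusted limma p 0.0439, adjusted p = 0.391), as was the alpha subunit Gna12 at -0.23 (adjusted p = 0.513), while the gamma subunit Gng11 stood at -0.50 with overlap (adjusted p = 0.517). Gnas, which encodes the stimulatory alpha subunit that joins beta receptors to adenylyl cyclase, read 368 ± 69.0 and 401 ± 77.5 scaled FPKM (SD, n = 3 each). Gnaq, a subunit that alpha-1 receptors use, read 3.31 ± 1.14 and 2.98 ± 0.938, and Gna11, another alpha subunit, 11.1 ± 0.469 and 10.3 ± 1.07. Gnas, Gnaq and Gna11 did not separate by genotype.

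On the Gq branch, 9 of 12 phospholipase C beta, protein kinase C and inositol trisphosphate receptor genes were tested, 2 above 0 and 7 below. Prkch, a protein kinase C, was lower without overlap at -0.42 (3.85 ± 0.479 and 2.62 ± 0.0941 scaled FPKM, SD, n = 3 each; unadjusted limma p 0.0103, adjusted p = 0.272). Prkca, the main conventional form in heart muscle, stood at -0.37 with overlap (adjusted p = 0.428) and Itpr2, a calcium release channel, at -0.24 without overlap (adjusted p = 0.546). Plcb4, a phospholipase C beta, was higher without overlap at 0.15 (adjusted p = 0.663).

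On the cyclic AMP branch no gene of 3 lists reached an unadjusted p under 0.05. Of 17 phosphodiesterases, which break down cyclic nucleotides, 11 were tested, 6 above 0 and 5 below. Those with the smallest p were Pde8a at -0.17, Pde4a at -0.26 and Pde7b at -0.32 (limma adjusted p 0.587, 0.629 and 0.692). Of 8 further subunits and inhibitors of protein kinase A, 6 were tested, with the inhibitors Pkia at -0.30 and Pkig at 0.37 and Prkacb at -0.15 (adjusted p 0.538, 0.553 and 0.69). Prkar2b, a regulatory subunit, read 11.9 FPKM in library 1 and at most 1.06 elsewhere, the library with the high adipocyte sum. Of 12 anchoring proteins and cyclic AMP-activated exchange factors 11 were tested, 7 above 0 and 4 below, led by Akap12 at -0.24, which was lower without overlap, Akap11 at 0.25 and Rapgef4 at -0.26 (adjusted p 0.459, 0.593 and 0.628). Akap7 was higher without overlap at 0.16 (adjusted p = 0.632).

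Among 13 genes listed as substrates of protein kinase A in muscle cells, 12 were tested and 10 were above 0. Phosphorylation was not measured. The median of the 12 was 0.15, which became -0.02 after quantile normalization and -0.01 after scaling to the same total. Those with the smallest p were Rrad, an inhibitor of calcium channels, at -0.64, Tnni3, cardiac troponin I, at 0.32 and Hspb6, a small heat shock protein, at 0.28 (limma adjusted p 0.451, 0.612 and 0.677). Pln, phospholamban, read 1475 ± 323 and 1610 ± 234 scaled FPKM and differed by 0.14 (adjusted p = 0.828). Sln, sarcolipin, had the widest difference of the list at 1.70 (adjusted p = 0.765). It read 151 FPKM in library 1, 59.5 in library 5 and 104 in library 6, against 0.790 to 2.05 in the other 3. Sln is itself on the list of atrial markers, of which Myl7 and Myl4 were high in libraries 1, 5 and 6. The sum of that list did not follow Sln in every library. In library 2, where Sln read 0.790 FPKM, the atrial sum was 826 scaled FPKM.

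**Figure D5:**
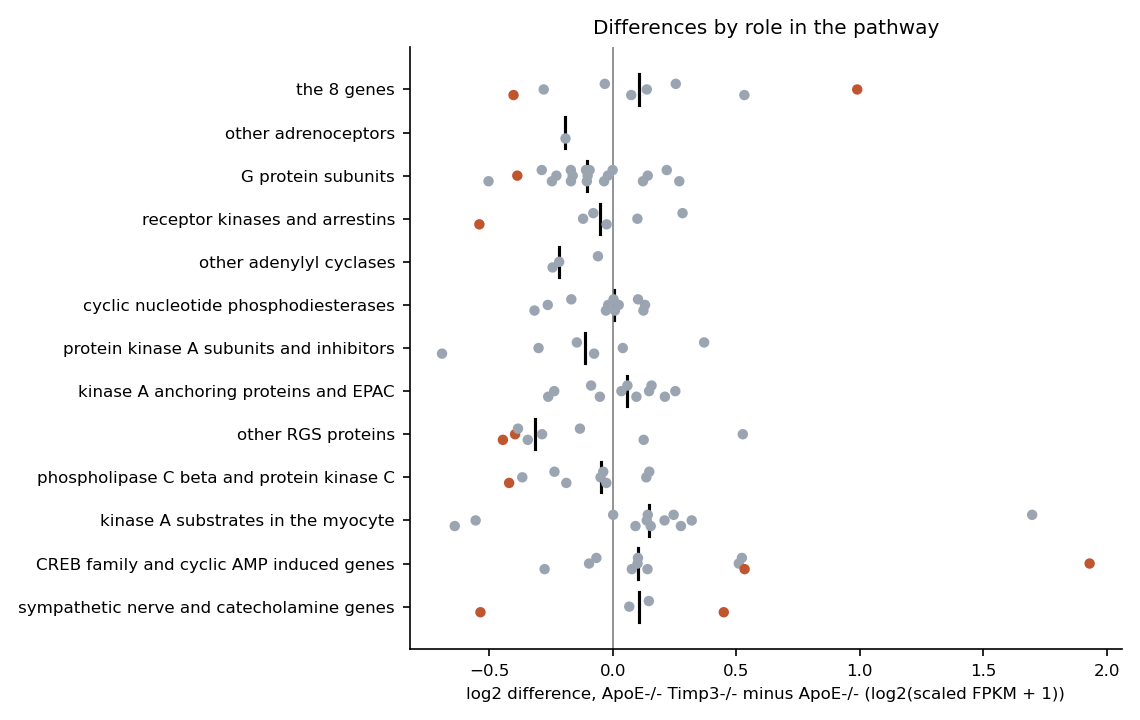
Log2 difference of each tested gene (horizontal axis, ApoE-/- Timp3-/- minus ApoE-/-, log2(scaled FPKM + 1)) by role in the pathway (rows); orange points have an unadjusted limma p under 0.05, grey points do not, and black ticks are medians. Orange points lie on both sides of 0, and the one farthest to the right is Nr4a1 at 1.93.

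Genes that cyclic AMP is known to induce held the largest single difference of the pathway. Nr4a1, an orphan nuclear receptor, read 1.28, 2.31 and 3.41 FPKM in the controls and 18.7, 10.7 and 6.32 in the double mutants. Every double mutant was above every control, with a wide spread among the double mutants (log2 difference 1.93, unadjusted limma p 0.00198, adjusted p = 0.234). Its relatives Nr4a2 and Nr4a3 were too low for the test but ordered alike: Nr4a2 read 0.363 to 0.706 in the controls and 1.02 to 1.62 in the double mutants, and Nr4a3 0.282 to 0.382 and 1.06 to 1.83. Sik1, a kinase induced by cyclic AMP, was higher without overlap at 0.53 (adjusted p = 0.375) and the clock gene Per1 stood at 0.51 with overlap (adjusted p = 0.497). Fos, below the filter, went the other way, at 0.897 to 1.36 FPKM in the controls and 0.567 to 0.722 in the double mutants. Of the 14 genes on this list 11 were tested, 8 above 0 and 3 below, and Creb1 itself differed by 0.14 (adjusted p = 0.851).

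Of 11 genes for sympathetic nerves and catecholamine turnover, 4 were tested. Dbh, which makes noradrenaline from dopamine, was higher without overlap at 0.45 (2.28 to 4.13 FPKM in the controls, 3.95 to 4.92 in the double mutants as deposited, separated after scaling; unadjusted limma p 0.015, adjusted p = 0.294). Maob, which oxidises amines, differed by 0.15 (adjusted p = 0.741). Th, the first enzyme of catecholamine synthesis, was listed at 0 in 5 libraries and at 0.0538 FPKM in the other.

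For each of the 8 genes, the 2 genes with the highest Pearson r of log2 values over the 6 libraries were named among the 11385, as a description of 6 points that share library and scaling. They were Ccdc189 (0.995) and Cnot8 (0.991) for Adrb1, Mlh3 (0.997) and Zdhhc14 (0.988) for Adra1a, Kcnq1 (0.991) and Spop (0.985) for Adra1b, and Tent4b (0.992) and Naa30 (0.984) for Adcy5. For Adcy6 they were Ephx2 (0.997) and Zfp606 (0.993), for Prkaca Sat2 (0.996) and Prmt1 (0.991), for Rgs2 Gm11957 (0.999) and Ptgs1 (0.994), and for Rgs4 Gm12739 (0.992) and Mgst3 (0.986). No gene was nearest to more than 1 of the 8, and none of the 8 was among another's nearest.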

How the data were processed

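Hearts of 6 mice were sequenced. The authors deposited, per the file attributes, 1 Cufflinks transcript file per library, with FPKM, its bounds and coverage for each transcript. Per the submitters' processing notes, TopHat, Bowtie and Cufflinks were used with the build NCBIM37. Versions, read length and strandedness were not given in the sources here, so overlapping genes cannot be told apart.

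Reference transcripts were given to genes by identifier or exon overlap of at least 50%, and transcripts assembled in 1 library (34% to 39.6% of bases) likewise where at least 300 nt long; 74.8% to 81.2% of bases went to a gene. FPKM were summed by gene, and 193 genes with a transcript missing from a file were left out. A later annotation (GENCODE) gave symbols, transcript classes and the Prkaca coding starts; expression coordinates are those of the files. Genes with a mean FPKM of at least 1 and a transcript of at least 300 nt were tested. Median-of-ratios factors of 0.896 to 1.17 scaled the libraries to each other. Genotypes were compared on log2(scaled FPKM + 1) by limma 3.58.1 (R 4.3.3; two-sided, with trend, Benjamini-Hochberg adjustment). Single-library values are as deposited, and means ± SD and overlap of groups are of scaled FPKM. This scale understates changes of low genes. Within-library ratios were tested by exact permutation. Some results, among them 1 of 5 ratios, are not reported here. The fit was tested on simulated data.

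The members and lists were chosen with earlier results of these data known. Named genes were the 8 members, the 3 with the smallest p of each pathway list and any past the threshold, Timp3, Apoe and the 2 genes most like each member; other names were chosen after their values were seen. The labels call the controls littermates and say nothing more of how samples relate, so each p-value reflects only how these samples vary, which may be technical. An FPKM of 0 can be a failed estimate.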

Additional observations from a re-analysis of the deposited data

How the results depend on the processing

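No paired analysis was possible because the labels number the libraries 1 to 6 with no number shared between the genotypes. The count of 5 genes past an adjusted p of 0.05 was 3 with a pseudocount of 0.1, 9 with no filter on the mean, 1 with a mean FPKM of at least 5, 102 with library weights, 3 to 10 with 1 library left out (3 without library 1, 10 without library 2 and without library 4), and, by settings chosen after seeing the data, 9 with aligned bases per kilobase and 0 without the 300 tested genes at 0 in a library (1411 at an unadjusted p under 0.05). The count of 16 transcripts was 2 with a mean FPKM of at least 5, 43 without trend and 18 to 52 with 1 library left out, all chosen after seeing the data. None of the 8 genes passed under any setting.

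The Adcy5 difference became 0.017 without library 3 and 0.016 without library 4 (-0.10 to 0.017 with 1 library left out). The Rgs4 difference became -0.10 with the same total, -0.12 with library weights and -0.15 without library 1 (-0.15 to 0.23 with 1 library left out). The Prkaca difference became -0.010 with quantile normalization, -0.050 with the same total and -0.0057 from the strongest transcript. The median of the 8 genes became -0.074 with the same total, where the median of all genes was -0.16, -0.014 with library weights and 0.040 to 0.19 with 1 library left out. The cause of these changes was not tested. Adrb1, Adra1a, Adra1b, Adcy6 and Rgs2 kept their direction under every setting that gave a value; Adrb1 gave none at a mean FPKM of at least 5, and Adra1a none there, from reference transcripts only or from the strongest transcript. Signs of list medians also turned for phosphodiesterases, anchoring proteins, phospholipase C and protein kinase C, kinase A substrates, cyclic AMP induced genes, sympathetic genes and other adenylyl cyclases under some settings.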
